A study of Homo sapiens with 21 samples.

Results

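The autophagy and lysosome genes described here are 42 genes fixed as a list by symbol: 24 of the autophagy machinery, 2 cargo receptors, 2 transcription factors and 14 of the lysosome. All 42 were found among the 37637 features of the table through their Ensembl identifiers, and 41 passed the filter on low counts, as did 17951 features in all. HepG2 is an established human hepatocellular carcinoma line. Its cells were held for 24 h in serum-free medium with caffeine at 0.01, 0.1, 1, 10, 100 or 1000 µM, and the control cells were held in the same medium without caffeine (0 µM). Each of the 7 groups has 3 libraries, 21 in all, and the comparisons ask at which dose the RNA of these genes differs from control. All groups, the control included, were without serum for the whole exposure, so serum withdrawal is common to every value below.

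Autophagy encloses cytoplasm in a double membrane and delivers it to the lysosome, where hydrolases break it down, and in the liver it supplies amino acids and lipids during fasting and removes damaged organelles. The ULK kinase complex starts the process, the class III PI3-kinase complex marks the site with phosphatidylinositol 3-phosphate, WIPI proteins read that mark, and ATG2 and ATG9 supply lipid and membrane. The ATG7, ATG3, ATG10 and ATG12-ATG5-ATG16L1 enzymes then attach ATG8 proteins (LC3 and GABARAP) to the membrane, and receptors such as p62 hold cargo to them. TFEB and TFE3 are transcription factors that bind the CLEAR motif in promoters of many lysosomal and autophagy genes.

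Total counts per library ran from 23502519 to 44815552. The libraries fell into 3 sets on their 13 mitochondrial mRNAs (mean silhouette 0.571, against 0.525 for 2 sets), and the labels name no batch. Set A holds 11 libraries, namely all those of control, 0.01 and 0.1 µM and replicates 1 and 2 of 1 µM. Set B holds 7, namely replicate 3 of 1 µM, all of 10 µM, replicate 2 of 100 µM and replicates 1 and 2 of 1000 µM. Set C holds 3, namely replicates 1 and 3 of 100 µM and replicate 3 of 1000 µM. The mitochondrial share of counts was 9.93% to 14.2% (A), 4.70% to 4.93% (B) and 11.7% to 12.8% (C). Every control is in set A and no library of 10, 100 or 1000 µM is, so a single library, replicate 3 of 1 µM, ties set A to set B within a dose. Each comparison with control is therefore given without and with the library set as a term in the fit. The hepatocyte markers were abundant in every library (ALB at 6110 to 15342 CPM, counts scaled to a common library size), and their sum over 9 markers was 34645 to 42832 CPM in control and 28173 to 29541 CPM at 1000 µM. Of the markers of other cell types, COL1A1, COL1A2, VWF and PTPRC had at most 9 counts in any library, PDGFRB had 83 to 711 counts and CD68 514 to 2122 counts, and their sum was 44.1 to 58.8 CPM in control and 36.8 to 69.5 CPM at 1000 µM. The part of these shifts in the results was not tested. In such bulk RNA, fewer cells and less RNA per cell cannot be told apart.

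At the 3 lowest doses none of the 41 tested genes was called, that is, reached an edgeR quasi-likelihood adjusted p below 0.05. In rising order of dose, 4, 1 and 3 genes had an unadjusted p under 0.05, and edgeR called 0.0279%, 0% and 0.106% of all features. DESeq2 called 1, 0 and 0 of the genes, and 386, 53 and 410 of all features. With the library set as a term, 2 genes (RB1CC1 and ATP6V1A, both lower) were called at 0.01 µM against 3.02% of all features, and none at 1 µM against 0.629%. Across all 6 doses jointly, 33 of the 41 genes were called, with 73.6% of all features, and 27 with the set as a term, with 59.8%. In the joint test without the set term, the 8 genes not called were ATG13, UVRAG, WIPI2, ATG2A, ATG3, ATG16L1, GABARAP and TFEB. All 14 lysosomal genes and both receptors were thus called in that fit, which does not hold differences between library sets apart from dose.

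At 10 µM 9 of 41 genes were called, 4 higher (ATG7, ATG10, HEXA, ATP6V1H) and 5 lower (ATG3, GABARAPL1, SQSTM1, CTSL, TPP1), against 14.8% of all features. With the set as a term none was called by edgeR's quasi-likelihood test, 2 had an unadjusted p under 0.05, and 0.0279% of all features were called. DESeq2 without the term called 14 of the genes and 3196 of all features. No 10 µM library shares a set with a control, so dose and set cannot be told apart here without the 1 µM library named above. Leaving out single libraries also lowered the count to between 1 (without replicate 2 or 3 of 10 µM) and 6 (without control replicate 3). It was 2 without control replicate 1 or replicate 1 of 10 µM and 3 without control replicate 2. The levels of 2 of the 41 tested genes separated set B from both other sets whatever the dose. The share of all features that did so was not computed. TPP1, a lysosomal peptidase, lay at 107 to 140.1 CPM in the 7 set B libraries, against 186 to 247 CPM over set A and 171 to 198 CPM over set C. ATP6V1A, the catalytic subunit of the proton pump, lay at 118 to 144 CPM in set B, 68.5 to 95.2 CPM in set A and 75.6 to 87.2 CPM in set C.

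**Figure D1:**
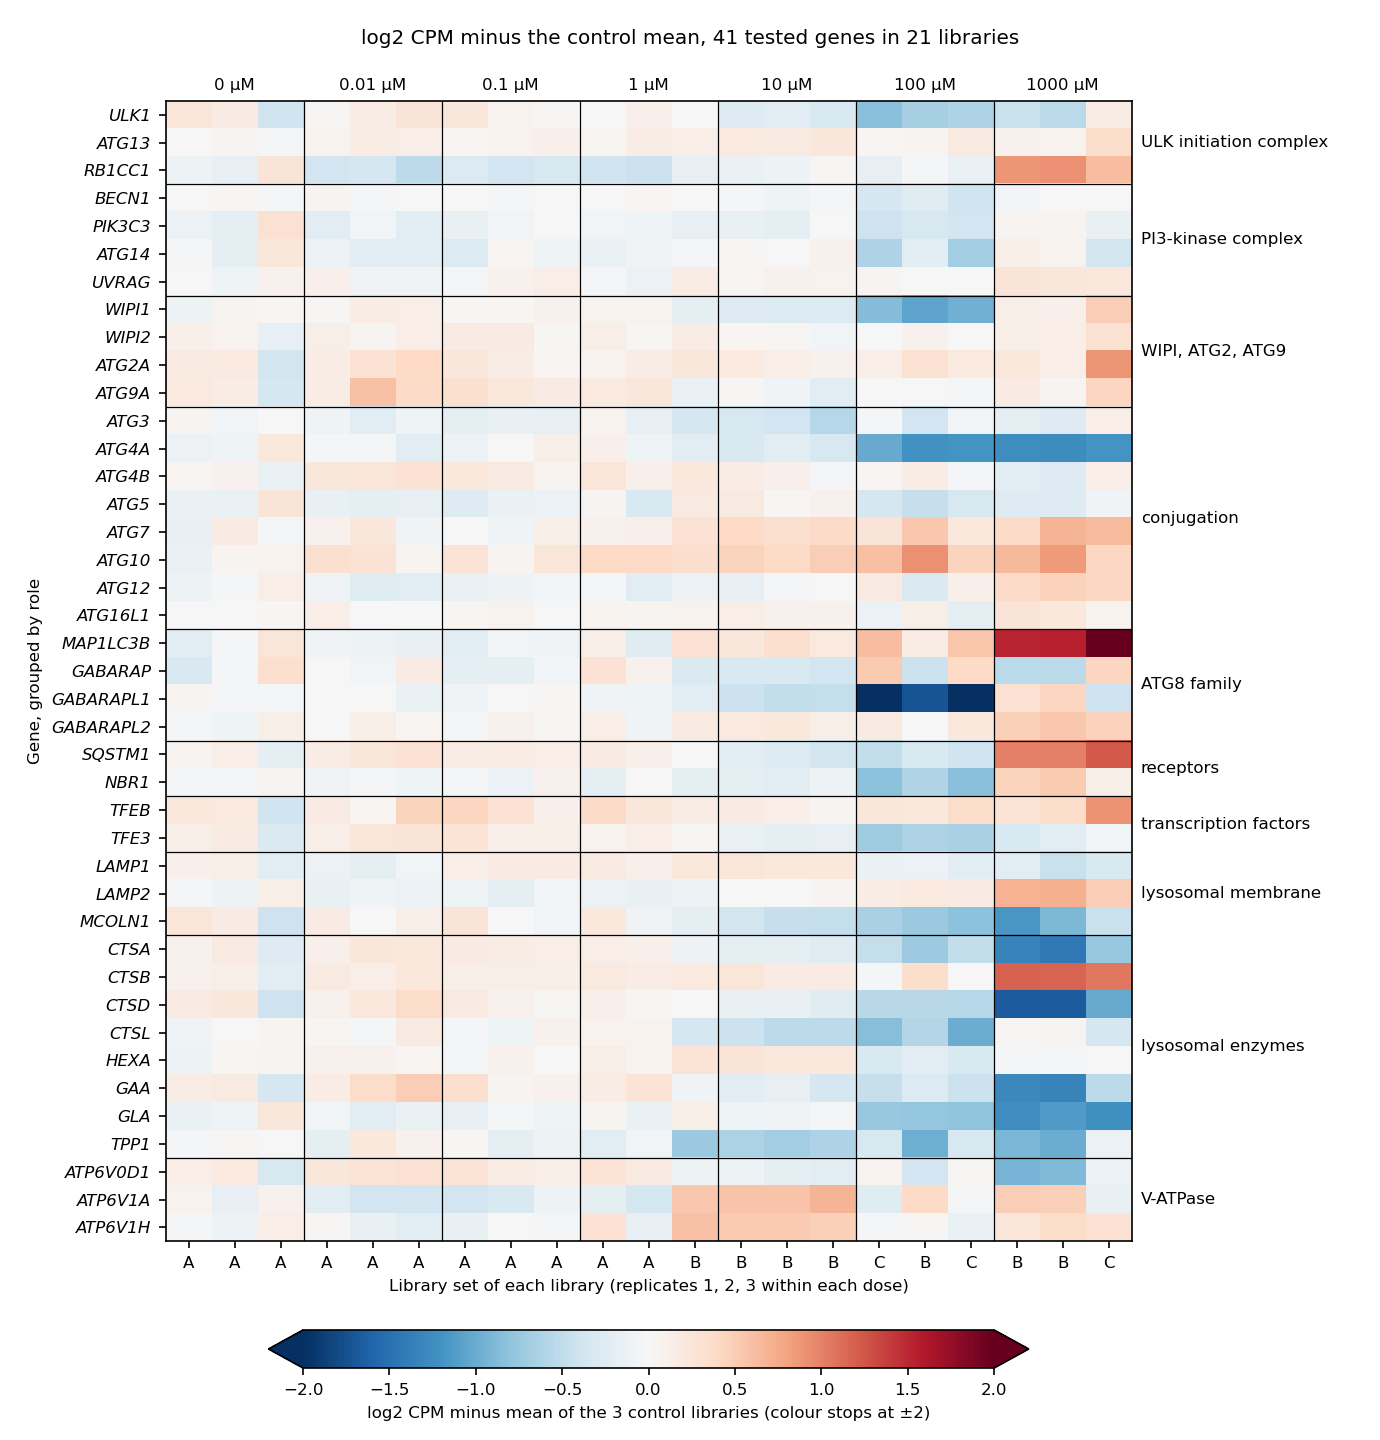
Each row is 1 of the 41 tested genes grouped by role and each column 1 of the 21 libraries, ordered by caffeine dose in µM and replicate, with its library set (A, B or C) below; colour gives log2 CPM minus the mean of the 3 control libraries and stops at 2 on either side. MAP1LC3B, SQSTM1 and CTSB are red in all 3 libraries of 1000 µM, CTSD, CTSA and GLA are blue there, and GABARAPL1 and WIPI1 are blue in all 3 libraries of 100 µM; at 1000 µM only replicate 3 of GABARAPL1 is blue among these 2 genes.

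At 1000 µM against control 23 of the 41 genes were called, 14 higher and 9 lower. Over all features 57.6% were called, 28.5% higher and 29.1% lower, so the share of genes called lay near that of the table. Of the 23 tested machinery genes 9 rose and 1 fell, both receptors rose, and of the 14 lysosomal genes 2 rose and 8 fell. The median log2 fold change was 0.18 for the machinery, 0.73 for the 2 receptors and -0.47 for the lysosomal genes, and 0.15 for all 41 genes against -0.01 over all features. With the library set as a term 18 genes were called, 10 higher and 8 lower, against 38% of all features, 18.2% higher and 19.8% lower. By class this fit gave 5 higher and 2 lower in the machinery, both receptors higher, and 3 higher and 6 lower among the lysosomal genes, with medians of 0.11, 0.88 and -0.38. The calls of 15 genes were shared by both fits with the same sign, and no gene was called in opposite directions. Over all features, 6152 of the 10342 called without the term were shared with the same sign, and 3 were called in opposite directions.

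**Figure D2:**
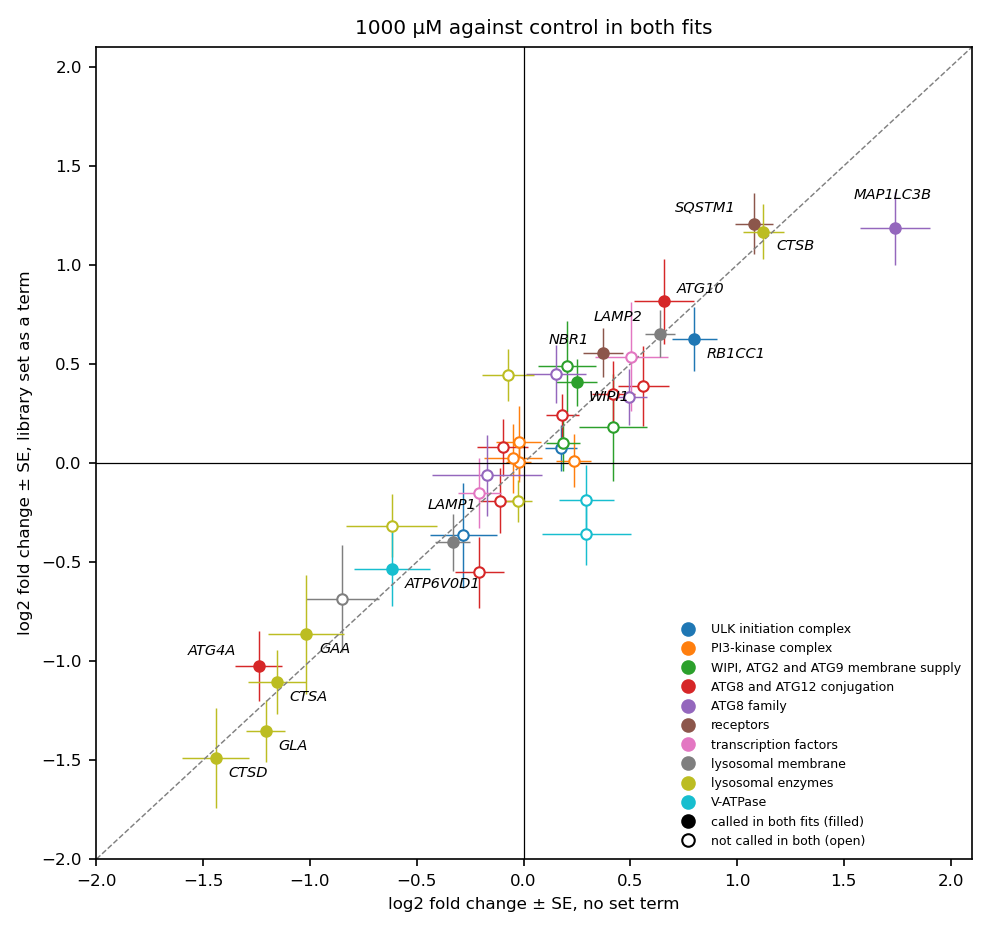
Each point is 1 of the 41 tested genes at 1000 µM against control, with its log2 fold change ± SE without the set term (horizontal) and with it (vertical), coloured by role; the dashed line marks equal values. The 15 genes called in both fits (filled, named) lie in the upper right or lower left, from CTSD, lowest on both axes at -1.44 and -1.49, to MAP1LC3B (1.74 and 1.19) and SQSTM1 (1.08 and 1.21), the highest on the horizontal and the vertical axis.

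In the initiation complex, RB1CC1, the scaffold also called FIP200, stood at 99.0, 94.4 and 127 CPM in the 3 control libraries, 96.4, 98.6 and 107 CPM at 10 µM, 94.2, 105 and 96.7 CPM at 100 µM and 195, 199 and 163 CPM at 1000 µM. All 3 libraries of 1000 µM lay above all those of control, 10 and 100 µM. RB1CC1 rose by a log2 fold change of 0.80 ± 0.106 (SE, edgeR adjusted p = 2.89e-06) against control, and by 0.62 ± 0.163 (edgeR adjusted p = 0.00506) with the set term. ULK1, the kinase, was not called at 1000 µM (log2 fold change -0.28) but was lower at 100 µM without and with the set term (-0.73 and -0.88). The second kinase, ULK2, had 0 counts in 19 libraries and 1 count in replicates 1 and 2 of 1000 µM, and was the gene that did not pass the filter. At this depth no difference in ULK2 was detectable. The adaptor ATG13 was called in neither fit, with log2 fold changes of 0.18 and 0.08.

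None of the 4 genes of the PI3-kinase complex was called at the top dose in both fits. BECN1, the Beclin 1 scaffold, had 120.2, 124 and 117 CPM in control, 118, 114 and 117 CPM at 10 µM, 94.8, 102 and 91.5 CPM at 100 µM and 115, 121 and 119 CPM at 1000 µM. The libraries of 1000 µM overlapped the controls, and those of 100 µM lay below every control. The BECN1 log2 fold change at 1000 µM was -0.02 ± 0.0591 (edgeR adjusted p = 0.759). At 100 µM it fell by 0.32 (edgeR adjusted p = 0.000201), a call that was not kept with the set term (-0.28, edgeR adjusted p = 0.0824). PIK3C3, the lipid kinase VPS34, was at -0.02 at 1000 µM and ATG14, which directs the complex to autophagosomes, at -0.05, neither called. UVRAG, the subunit of the endosomal form, was called only without the set term (0.24, and 0.01 with it). PSME3, with 157% of its mean count, shares part of the BECN1 locus on the opposite strand, and whether the counting used strand is not stated in the sources used here.

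WIPI1, which binds phosphatidylinositol 3-phosphate, had 139, 154 and 153 CPM in control, 125, 123 and 124 CPM at 10 µM, 81.5, 71.8 and 76.2 CPM at 100 µM and 162, 159 and 209.8 CPM at 1000 µM. It was lowest at 100 µM, with no overlap with any other dose shown, and the 1000 µM libraries were all above the controls. The fall at 100 µM was 0.96 on the log2 scale, with an SE of 0.0973 (edgeR adjusted p = 2.32e-07; -0.88 with the set term). The rise at 1000 µM was 0.25 ± 0.0961 (edgeR adjusted p = 0.0332; 0.41 with the set term, edgeR adjusted p = 0.0111). It rested on the libraries used: without replicate 3 of 1000 µM it was 0.10 (edgeR adjusted p = 0.303) and without control replicate 1 it was 0.20 (edgeR adjusted p = 0.136). The call was also lost without the filter (0.26, edgeR adjusted p = 0.0603) and with only the compared groups in the fit (0.25, edgeR adjusted p = 0.152). WIPI2 and ATG9A, the transmembrane scramblase, were called in neither fit, and ATG2A, the lipid transfer protein, only without the set term (0.42).

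Among the conjugation genes, the 2 with the largest change moved in opposite directions. ATG4A, a protease that trims ATG8 proteins, had 17.9, 18.5 and 22.6 CPM in control, 15.8, 16.7 and 15.6 CPM at 10 µM, 9.75, 8.38 and 8.52 CPM at 100 µM and 8.24, 8.18 and 8.54 CPM at 1000 µM. The libraries of the 2 top doses were all below every control and overlapped each other. ATG4A fell by 1.15 at 100 µM and by 1.24 at 1000 µM on the log2 scale (SE 0.109 and 0.110, edgeR adjusted p = 1.09e-07 and 1.39e-08), and with the set term by 0.96 and 1.02. ATG10, the enzyme that joins ATG12 to ATG5, was the least counted tested gene, with 84 to 274 counts per library. Its levels were 2.78, 3.19 and 3.22 CPM in control, 4.16, 4.06 and 4.33 CPM at 10 µM, 4.69, 5.84 and 4.19 CPM at 100 µM and 4.82, 5.56 and 4.10 CPM at 1000 µM. Every library from 10 µM upward was above every control, and the 3 upper doses overlapped. ATG10 rose at 1000 µM by 0.66 ± 0.142 (edgeR adjusted p = 0.000569), and by 0.82 with the set term. The ribosomal gene RPS23 lies within its locus on the opposite strand with far more counts, and was not called (0.19, edgeR adjusted p = 0.551). Of the other 6 conjugation genes, ATG7 (0.56) and ATG12 (0.42) were called without the term alone and ATG5 with it alone (-0.55), while ATG3, ATG4B and ATG16L1 were called in neither fit.

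The ATG8 family held the gene with the largest rise at 1000 µM without the set term; with it the receptor SQSTM1 had the higher value (1.21 against 1.19). MAP1LC3B (LC3B; ENSG00000140941.13, chr16:87383995-87404779, plus strand, GRCh38) had 61.0, 69.1 and 83.3 CPM in control, 82.2, 88.4 and 81.0 CPM at 10 µM, 108, 77.9 and 104 CPM at 100 µM and 202, 208 and 302 CPM at 1000 µM. The 1000 µM libraries lay far above all others, and those of 100 µM overlapped the controls. The mean at 1000 µM, 238 ± 56.1 CPM (SD, n = 3), was 3.34 times the control mean of 71.1 ± 11.3 CPM. The log2 fold change was 1.74 ± 0.163 (edgeR adjusted p = 3.55e-08), and 1.19 ± 0.184 with the set term (edgeR adjusted p = 4.93e-05). At 100 µM the call without the term (0.44, edgeR adjusted p = 0.03) turned to -0.27 with it (edgeR adjusted p = 0.37). It also missed the threshold without control replicate 1 or 2 or without replicate 1 or 3 of 100 µM, at 0.34 to 0.42. FBXO31, which overlaps MAP1LC3B on the opposite strand with 99.1% of its mean count, was not called at 1000 µM (0.20, edgeR adjusted p = 0.106), and it was not tested how far the counts of either gene hold reads of the other.

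GABARAPL1 (chr12:10212458-10223130, plus strand) followed another course. Its levels were 65.2, 61.6 and 61.9 CPM in control, 46.5, 44.6 and 45.0 CPM at 10 µM, 15.7, 19.0 and 15.5 CPM at 100 µM and 77.7, 84.4 and 47.4 CPM at 1000 µM. All 3 libraries of 100 µM were below every other library, and at 1000 µM replicates 1 and 2 (set B) were above the controls and replicate 3 (set C) below them. GABARAPL1 fell at 100 µM by 1.91 on the log2 scale, with an SE of 0.146 (edgeR adjusted p = 6.63e-09), and by 1.41 with the set term. At 1000 µM it was at 0.15 ± 0.139 (edgeR adjusted p = 0.361), and it passed the threshold with the set term (0.45, edgeR adjusted p = 0.0203) or without replicate 3 of 1000 µM (0.36, edgeR adjusted p = 0.00163). Its promoter held the only match, among the 35 of the 42 genes with a promoter sequence, to the cAMP response element, the CREB-binding sequence (TGACGTCA on either strand), present in 1.85% of the 35116 RefSeq promoters. The window is chr12:10212817-10212876 (GRCh38.p14, plus strand), printed because this gene had the largest change of the list between the 2 top doses. Capitals mark the element, which starts at position -30 from the RefSeq start.
GABARAPL1: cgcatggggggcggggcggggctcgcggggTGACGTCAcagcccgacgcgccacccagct
Of the other ATG8 genes, GABARAPL2 was called only without the set term (0.49 at 1000 µM) and GABARAP in neither fit (-0.17 and -0.06).

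**Figure D3:**
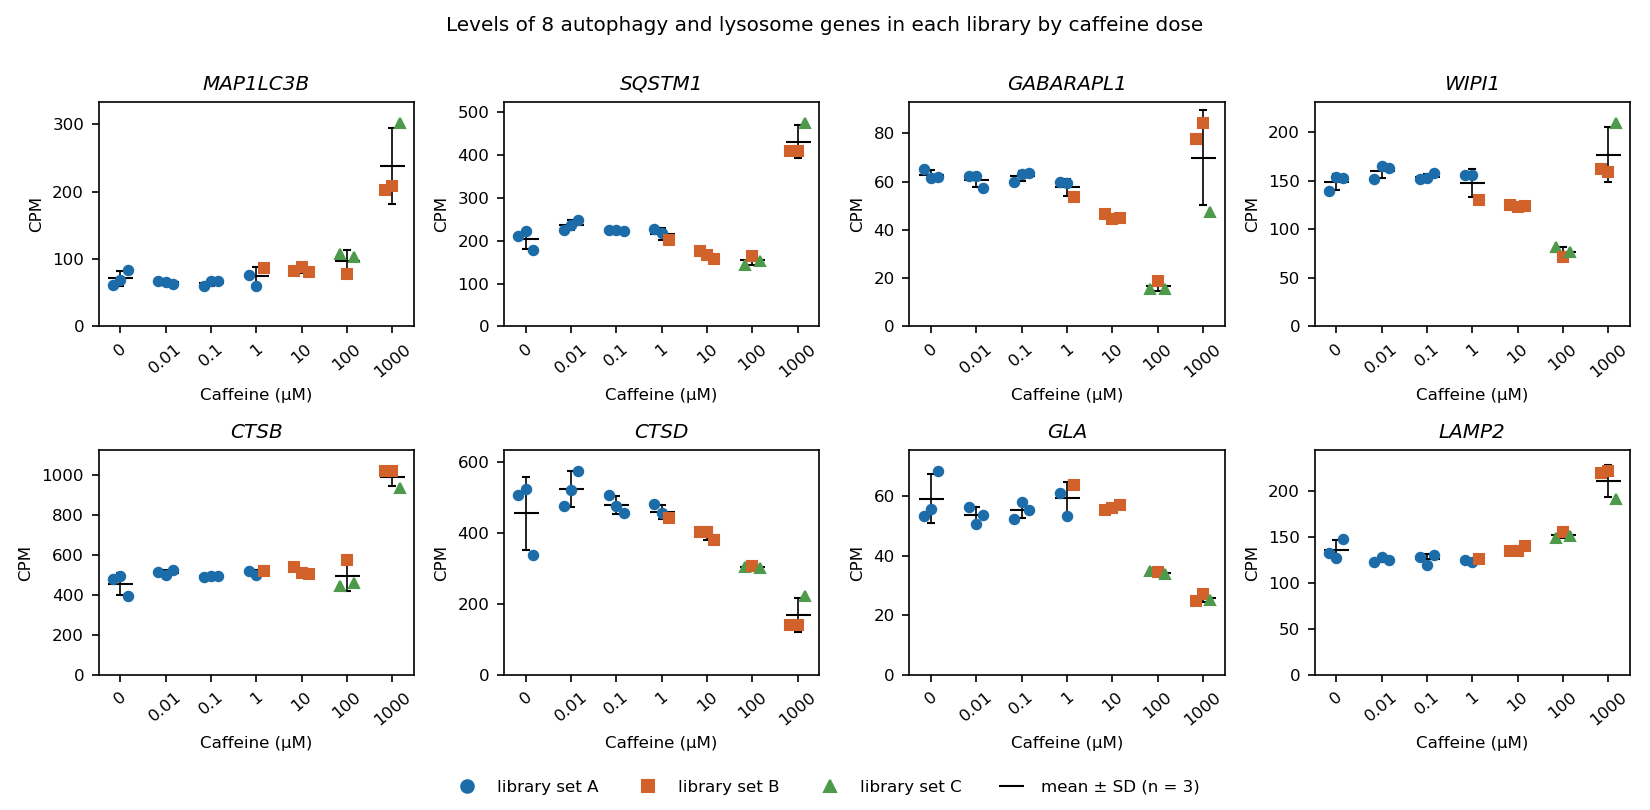
The level in CPM (vertical) of 8 genes is plotted against caffeine dose in µM (horizontal, not to scale), 1 point per library with its set by colour and shape, and bars for mean ± SD (n = 3). MAP1LC3B, SQSTM1, CTSB and LAMP2 stand highest at 1000 µM, CTSD and GLA lowest there, and GABARAPL1 and WIPI1 have their lowest libraries at 100 µM.

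Both cargo receptors were lower at 100 µM and higher at 1000 µM. SQSTM1 (p62; ENSG00000161011.20, chr5:179806398-179838078, plus strand), which binds ubiquitin and LC3, had 212, 222 and 179 CPM in control, 176, 168 and 158 CPM at 10 µM, 144, 164 and 154 CPM at 100 µM and 409, 410.1 and 476 CPM at 1000 µM. The 1000 µM libraries lay above all others and the 100 µM libraries below every control. SQSTM1 rose at 1000 µM by 1.08 ± 0.0878 (edgeR adjusted p = 4.3e-09), and by 1.21 ± 0.154 with the set term (edgeR adjusted p = 5.39e-06). Its fall of 0.40 at 100 µM (edgeR adjusted p = 0.000886) was not called with the set term (-0.29, edgeR adjusted p = 0.227). MGAT4B, on the opposite strand across part of the SQSTM1 locus with 45.5% of its mean count, was also higher at 1000 µM without the set term (0.48, edgeR adjusted p = 0.00231) but not called with it (0.32, edgeR adjusted p = 0.215) or at 1000 against 100 µM (-0.03, edgeR adjusted p = 0.865). NBR1, a second ubiquitin-binding receptor, had 357, 353 and 374 CPM in control, 318, 308 and 335 CPM at 10 µM, 205, 238 and 203 CPM at 100 µM and 489.6, 519 and 394 CPM at 1000 µM. No library of 100 or 1000 µM overlapped the controls. NBR1 fell by 0.75 at 100 µM (SE 0.0949, edgeR adjusted p = 3.69e-06) and rose by 0.37 ± 0.0944 at 1000 µM (edgeR adjusted p = 0.00233). With the set term these were -0.46 (edgeR adjusted p = 0.0183) and 0.56 (edgeR adjusted p = 0.00153).

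Neither transcription factor was called at the top dose in both fits. TFE3 had 68.2, 71.5 and 51.5 CPM in control, 57.3, 55.2 and 56.5 CPM at 10 µM, 38.4, 41.1 and 40.3 CPM at 100 µM and 51.0, 54.1 and 60.9 CPM at 1000 µM. Only the 100 µM libraries lay apart, all below every control. TFE3 fell at 100 µM by 0.67 (SE 0.101, edgeR adjusted p = 2.44e-05) and by 0.64 with the set term (edgeR adjusted p = 0.0219). At 1000 µM it was at -0.21 ± 0.100 (edgeR adjusted p = 0.0864), and the call turned on single libraries, at -0.34 without control replicate 3 (edgeR adjusted p = 0.00174) and -0.28 without replicate 3 of 1000 µM (edgeR adjusted p = 0.0286). TFEB, at 4.64 to 7.18 CPM in control and 7.50 to 11.6 CPM at 1000 µM, was called without the set term alone (0.51, and 0.54 with it). These are RNA levels; both proteins are regulated by their location in the cell, which was not measured.

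The CLEAR core (TCACGTGA, its own reverse complement) was searched in the 300 bases around each RefSeq start (250 before and 50 after). It was present in 0.98% of the 35116 promoters and in those of 6 of the 35 listed genes with a promoter sequence: ATG3, ATP6V0D1, CTSA, GAA, LAMP1 and MCOLN1. The shorter E-box inside it (CACGTG) was present in 7.26% of all promoters and in those of 8 listed genes, the same 6 with ATG14 and CTSD. The lysosomal sites are printed because the 5 lysosomal genes with a CLEAR core were all lower at 1000 µM (4 of them with the set term), as was CTSD. Of the genes with a promoter sequence, the core was in 5 of 9 called lower, 0 of 10 called higher and 1 of 15 not called. With the set term it was in 4 of 8, 0 of 7 and 2 of 19. For no motif was the split by call over all features computed, and a link of motif and direction was not tested. The windows are chr20:45891279-45891334 for CTSA, chr17:80101474-80101541 for GAA, chr19:7522552-7522619 for MCOLN1 and chr13:113297180-113297238 for LAMP1 on the plus strand. Those on the minus strand are chr16:67481180-67481247 for ATP6V0D1 and chr11:1763939-1764004 for CTSD (GRCh38.p14, RefSeq). Capitals mark the core, or the E-box in CTSD, and the first base of the capitals lies at -26, -77, -42, -29, -60 and -47 from the start in this order. The MCOLN1 window also holds a second core, left in lower case, whose first base lies at -15.
CTSA: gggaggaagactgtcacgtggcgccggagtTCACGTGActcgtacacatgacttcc
GAA: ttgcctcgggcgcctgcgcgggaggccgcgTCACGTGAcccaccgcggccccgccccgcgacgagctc
MCOLN1: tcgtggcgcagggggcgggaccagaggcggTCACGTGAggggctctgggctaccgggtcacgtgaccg
LAMP1: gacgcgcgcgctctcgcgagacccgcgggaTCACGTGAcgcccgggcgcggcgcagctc
ATP6V0D1: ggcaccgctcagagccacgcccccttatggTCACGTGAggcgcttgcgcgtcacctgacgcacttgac
CTSD: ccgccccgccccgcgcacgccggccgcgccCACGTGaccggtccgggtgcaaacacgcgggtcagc
A match is a run of letters and not a measured binding site. The antioxidant response core (TGACNNNGC on either strand) was in 13.3% of all promoters and in those of 8 listed genes, 6 of them among the 9 called lower at 1000 µM (ATP6V0D1, CTSA, CTSD, GAA, GLA, LAMP1), besides CTSL and MAP1LC3B. The forkhead site (GTAAACA) was in 3.42% and in CTSL alone of these 35 genes, and the amino acid response element (TGATGCAA) in 0.866% and in none of the 35.

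The 2 main lysosomal membrane glycoproteins moved in opposite directions. LAMP1 had 348, 351 and 278 CPM in control, 384, 375 and 374 CPM at 10 µM, 296, 299 and 277 CPM at 100 µM and 277, 239 and 261 CPM at 1000 µM. The 1000 µM libraries were all below the controls, the highest by a small margin. LAMP1 fell by 0.33 on the log2 scale (SE 0.0829, edgeR adjusted p = 0.00205), and by 0.40 with the set term (edgeR adjusted p = 0.035). With only the compared groups in the fit the call was lost (-0.33, edgeR adjusted p = 0.0585). LAMP2 had 132, 127 and 147 CPM in control, 134, 135 and 139.9 CPM at 10 µM, 149, 155 and 151 CPM at 100 µM and 219.6, 222 and 191 CPM at 1000 µM. Its 1000 µM libraries were above all others. LAMP2 rose by 0.64 ± 0.0714 (edgeR adjusted p = 3.19e-07), and by 0.65 with the set term (edgeR adjusted p = 0.000228). MCOLN1, the TRPML1 calcium channel, was lower at 1000 µM without the set term (-0.85, edgeR adjusted p = 0.000291) and not called with it (-0.69, edgeR adjusted p = 0.0523). PNPLA6, which overlaps MCOLN1 on the same strand with 712% of its mean count, was lower too (-1.04, and -1.25 with the set term), and the MCOLN1 counts are uncertain.

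Of the 8 lysosomal enzymes 5 fell at 1000 µM (CTSA, CTSD, GAA, GLA, TPP1), 1 rose (CTSB) and 2 were not called (CTSL, HEXA), with a median log2 fold change of -0.82. With the set term 4 fell, CTSB and CTSL rose, and TPP1 was no longer called (-0.32). CTSD, the aspartic protease cathepsin D, had 507, 521 and 337 CPM in control, 403, 402 and 378 CPM at 10 µM, 304, 305 and 299 CPM at 100 µM and 141, 140.1 and 222 CPM at 1000 µM. The 1000 µM libraries were below all others, replicate 3 (set C) the least so. CTSD fell by 1.44 on the log2 scale (SE 0.158, edgeR adjusted p = 2.62e-07), a ratio of means of 0.368, and by 1.49 with the set term (edgeR adjusted p = 0.000196). GLA, the alpha-galactosidase deficient in Fabry disease, had 53.4, 55.6 and 68.5 CPM in control, 55.2, 56.1 and 57.1 CPM at 10 µM, 34.7, 34.3 and 33.7 CPM at 100 µM and 24.8, 26.9 and 25.2 CPM at 1000 µM. The libraries of 100 and of 1000 µM formed 2 steps below the rest without overlap. GLA fell by 0.79 at 100 µM and by 1.21 at 1000 µM (SE 0.0911 and 0.0922, edgeR adjusted p = 1.19e-06 and 1.77e-09), and with the set term by 0.93 and 1.35.

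CTSB, the cysteine protease cathepsin B, went the other way. It had 481, 495 and 394 CPM in control, 538, 509 and 507 CPM at 10 µM, 445, 577 and 458 CPM at 100 µM and 1024, 1020.3 and 939 CPM at 1000 µM. The 1000 µM libraries were far above all others, and those of 100 µM overlapped the controls. CTSB rose by 1.12 ± 0.0947 (edgeR adjusted p = 7.04e-09), a ratio of means of 2.18, and by 1.17 with the set term (edgeR adjusted p = 2.78e-06). CTSA, the protective protein of beta-galactosidase, fell by 1.15 and GAA, the acid glucosidase deficient in Pompe disease, by 1.02, and with the set term by 1.11 and 0.87. CTSL, cathepsin L, was lower at 100 µM without the set term (-0.80) and not called with it (-0.16). At 1000 µM it was at -0.07 without the term and called higher with it (0.44, edgeR adjusted p = 0.011).

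In the V-ATPase, the proton pump that acidifies the lysosome, ATP6V0D1 of the membrane sector had 66.7, 69.8 and 48.9 CPM in control, 56.7, 54.1 and 52.3 CPM at 10 µM, 63.8, 46.6 and 62.2 CPM at 100 µM and 32.1, 33.1 and 56.3 CPM at 1000 µM. Replicates 1 and 2 of 1000 µM (set B) were below all other libraries and replicate 3 (set C) lay within the control range. ATP6V0D1 fell by 0.61 on the log2 scale (SE 0.179, edgeR adjusted p = 0.00652), and by 0.54 with the set term (edgeR adjusted p = 0.0288). Without replicate 3 of 1000 µM it fell by 0.93 (edgeR adjusted p = 1.84e-05), and with only the compared groups in the fit the call was lost (-0.61, edgeR adjusted p = 0.0684). ATP6V1A and ATP6V1H, of the catalytic sector, were not called at 1000 µM, each at 0.29 without the set term and at -0.36 and -0.19 with it.

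At 100 µM against control 20 of the 41 genes were called, 3 higher and 17 lower, against 46.6% of all features, 23.6% higher and 22.9% lower. The 3 higher were ATG7, ATG10 and MAP1LC3B. The median log2 fold change was -0.15, against -0.01 over all features. The genes that fell included 3 of the 4 genes of the PI3-kinase complex, both receptors and 5 of the 8 enzymes. With the set term 11 were called, 1 higher (ATG10) and 10 lower, against 17.3% of all features, 9.14% higher and 8.21% lower. The 10 were ULK1, WIPI1, ATG4A, ATG5, GABARAPL1, NBR1, TFE3, CTSA, GLA and HEXA.

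The contrast of the 2 top doses takes no mean from the control libraries, although all 21 libraries set its spread, and both doses have libraries in sets B and C. At 1000 against 100 µM 25 of the 41 genes were called, 20 higher and 5 lower, against 44% of all features, 21.8% higher and 22.3% lower. The same 25 were called with the same sign when the library set was a term, against 46.3% of all features, 22.4% higher and 23.9% lower. Over all features, 7396 of the 7906 called kept their call and sign. With only these 2 groups in the fit 18 of the 41 genes and 5322 features were called. The median log2 fold change of the 41 genes was 0.24, against 0.00 over all features. All 25 also differed in the same direction inside set B (2 libraries against 1) and inside set C (1 against 2). The 25 were called from these same libraries, so this is not separate evidence. Of the machinery 12 of 23 genes rose and 0 fell (2 further genes had an unadjusted p under 0.05 with the set term), and all 4 PI3-kinase genes were among the 12. ULK1, BECN1, PIK3C3 and ATG14 had been called lower at 100 µM against control without the set term. At 1000 µM against control these were at -0.28, -0.02, -0.02 and -0.05 and were not called, so their rise was from a level below control. Both receptors rose, and the enzymes split, with 3 higher (CTSB, CTSL, HEXA) and 4 lower (CTSA, CTSD, GAA, GLA).

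The largest rises between these doses were GABARAPL1 at 2.06 ± 0.146 (edgeR adjusted p = 1.48e-09), SQSTM1 at 1.49 ± 0.0888 (edgeR adjusted p = 1.36e-10) and MAP1LC3B at 1.30 ± 0.161 (edgeR adjusted p = 2.78e-06). WIPI1 followed at 1.21, NBR1 at 1.12 and CTSB at 1.01. With the set term the same 6 genes were at 1.85, 1.50, 1.45, 1.28, 1.02 and 0.94. For GABARAPL1, WIPI1 and NBR1 this rise followed a level below control at 100 µM, whereas the libraries of MAP1LC3B and CTSB at 100 µM overlapped the controls. Those of SQSTM1 at 100 µM also lay below every control, though that fall was not called with the set term. CTSD fell by 0.85, GAA by 0.61, CTSA by 0.58, ATP6V0D1 by 0.51 and GLA by 0.42. In log2 CPM the fall of GAA was 1.04 inside set B and 0.08 inside set C, that of CTSD 1.12 and 0.44, that of CTSA 0.65 and 0.28 and that of ATP6V0D1 0.51 and 0.16. For GLA the falls were 0.41 and 0.44. The ATP6V0D1 call (edgeR adjusted p = 0.0275) missed the threshold without replicate 1 or 3 of 100 µM or replicate 1 or 2 of 1000 µM, at -0.36 to -0.45, and was -0.82 without replicate 3 of 1000 µM. With only the compared groups in the fit it was also lost (-0.51, edgeR adjusted p = 0.145).

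Within set B alone, 1000 µM (2 libraries) was compared with 10 µM (3 libraries), and here 31 of 41 genes were called by edgeR's quasi-likelihood test, 14 higher and 17 lower. Over all 17090 features tested 69.1% were called, 34.1% higher and 35% lower. All 14 lysosomal genes were called, 3 higher (LAMP2, CTSB, CTSL) and 11 lower, among them 6 of the 8 enzymes and all 3 V-ATPase genes. Both receptors rose (SQSTM1 by 1.27 and NBR1 by 0.64), and of the machinery 9 genes rose and 6 fell. MAP1LC3B rose by 1.27 ± 0.054 (edgeR adjusted p = 9.65e-10), RB1CC1 by 0.95, GABARAPL1 by 0.82 and WIPI1 by 0.35. CTSD fell by 1.51 (SE 0.0542, edgeR adjusted p = 2.8e-10), CTSA by 1.19, GLA by 1.14, GAA by 1.09 and ATG4A by 0.99. The median over the 41 genes was 0.04, against -0.01 over all features.

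**Figure D4:**
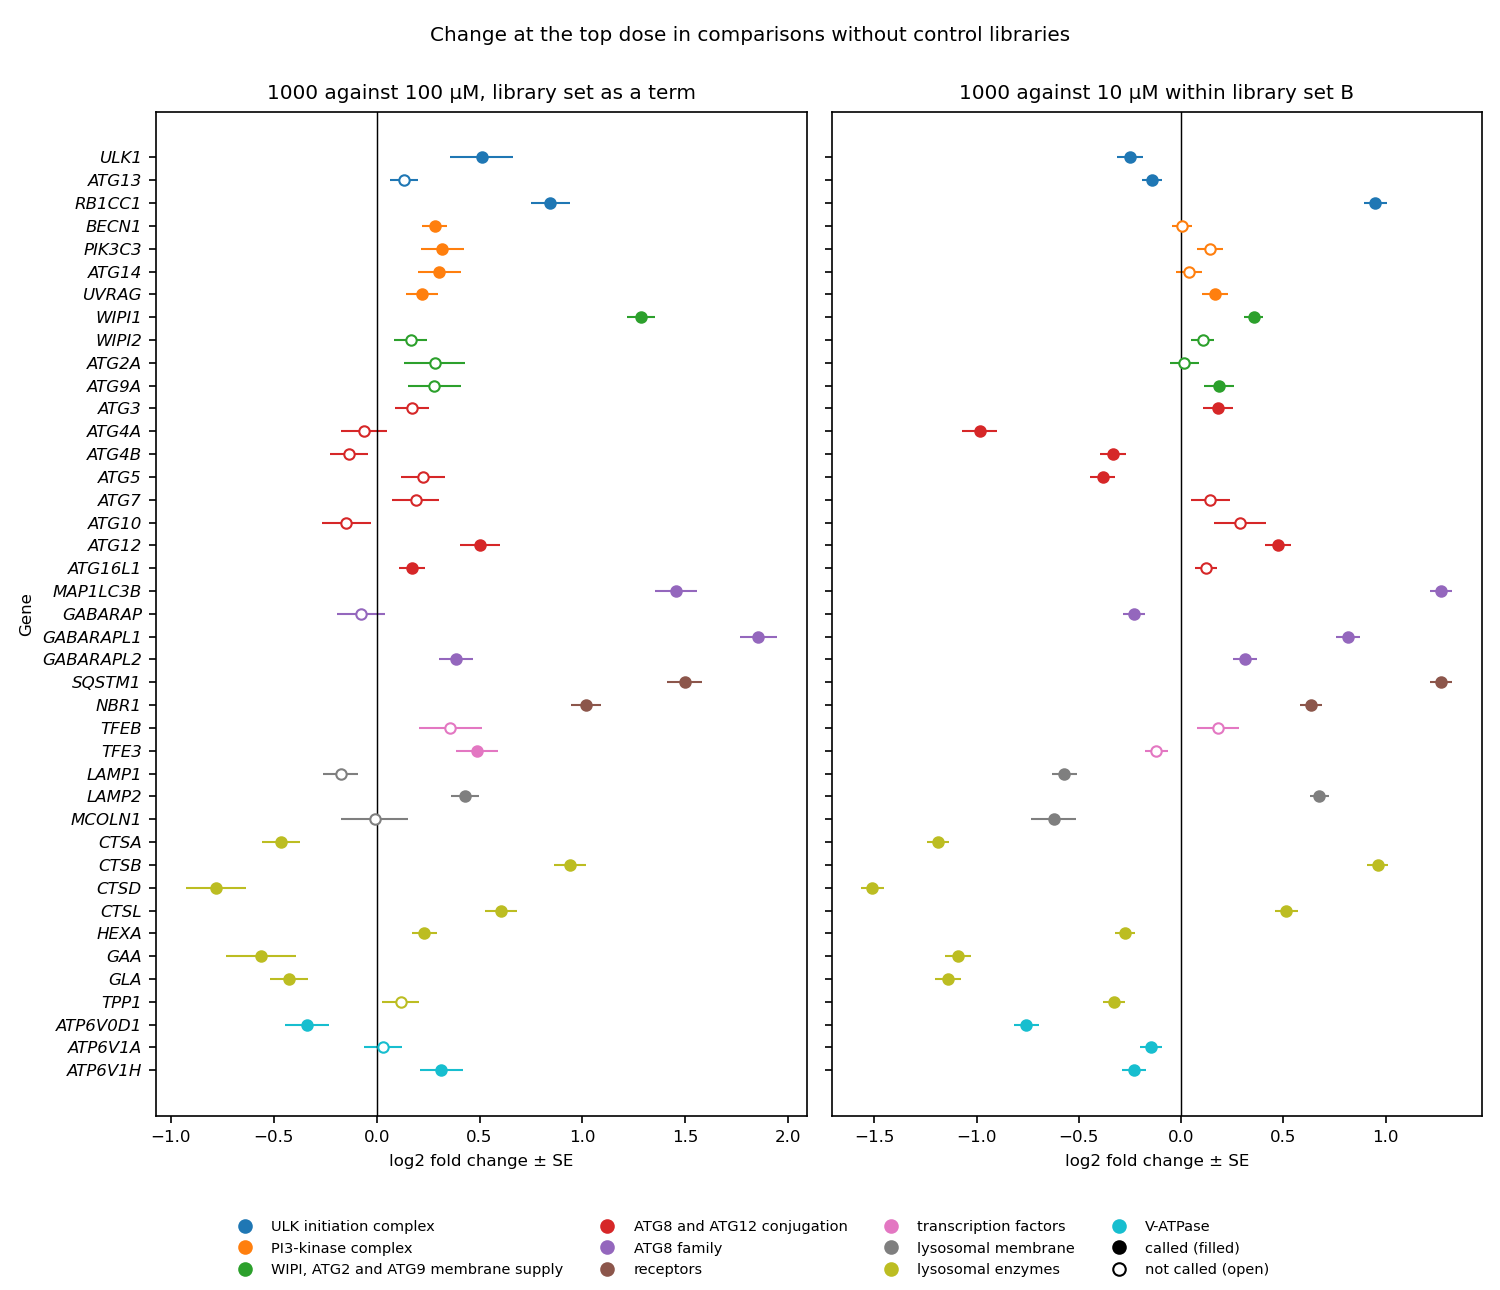
The log2 fold change ± SE (horizontal) of each of the 41 tested genes is shown at 1000 against 100 µM with the library set as a term (left) and at 1000 against 10 µM within set B (right), coloured by role, with called genes filled. MAP1LC3B, GABARAPL1, SQSTM1, NBR1, WIPI1 and CTSB lie to the right of 0 in both panels and CTSD, CTSA, GAA, GLA and ATP6V0D1 to the left. ULK1, HEXA and ATP6V1H are called in both panels but lie on opposite sides. ATG13, ATG5, ATG10, TFE3, TPP1 and ATP6V1A also lie on opposite sides and are not called in both.

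A further 126 genes of the same pathways were listed by role; 125 were in the table and 119 were tested. At 1000 µM against control 69 were called (58%), 26 higher and 43 lower, against 57.6% of all features. With the set term 46 were called (38.7%), 14 higher and 32 lower, against 38% of all features, so in both fits the share lay near that of the table. Of the 14 other V-ATPase genes 9 were lower and 0 higher in each fit, and 8 were the same genes; ATP6V0E1 was lower only without the set term (-0.46, and -0.10 with it) and ATP6V0B only with it (-0.68, and 0.34 without). The 32 other lysosomal enzymes and cofactors gave 5 higher and 15 lower (2 and 7 with the set term), the 11 other receptors 4 and 4 (3 and 3), and the 23 other machinery genes 5 and 5 (2 and 3). The 14 other lysosomal membrane genes gave 5 higher and 4 lower (2 and 3) and the 25 other regulators 7 and 6 (5 and 7). Among the genes called with the same sign in both fits, and ranked by either, the largest rise was that of CCPG1, an endoplasmic reticulum autophagy receptor, from 63.9 ± 6.77 CPM (SD, n = 3) in control to 295 ± 15.1 CPM at 1000 µM. Its log2 fold change was 2.21, and 1.97 with the set term. PRKAA2, a catalytic subunit of AMP-activated kinase, was at 1.49 (1.26 with the set term) and AMBRA1, a Beclin 1 partner, at 1.27 (1.25). MAP1LC3B2 and LAMP3 had larger fitted values without the set term (4.84 and 3.08) but few counts, at most 43 and 31 in a library, and were not called with it (edgeR adjusted p = 0.382 and 0.08). Ranked by the fit without the set term, the largest falls among the genes called in both fits were those of DEPTOR, an inhibitor of mTOR, at -2.38 (-1.97 with the set term), GM2A, the GM2 ganglioside activator, at -2.37 (-2.23), and TCIRG1, a V-ATPase subunit, at -2.06 (-2.04). Ranked with the set term, LIPA, the lysosomal acid lipase, at -2.03 (-1.93 without it) came before DEPTOR. GM2A went from 119 ± 4.22 CPM in control to 22.9 ± 3.15 CPM at 1000 µM. Within set B 89 of 118 tested genes were called at 1000 against 10 µM, 28 higher and 61 lower, a share of 75.4% against 69.1% of all features (34.1% higher and 35% lower).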

How the data were processed

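RNA of 21 HepG2 libraries was sequenced by the authors, and the deposited table holds whole-number counts of reads for each feature, per the file headers. HISAT2, DESeq2 and GRCh38 are named in the submitters' processing notes; the counting tool, annotation release and use of strand are not given in the sources used here, so overlapping genes have uncertain counts. Another 21 per-sample columns went unused. Groups came from the dose in the sample titles. The labels number 3 replicates per dose without saying whether they were separate cultures, so p-values measure only the spread between these libraries, which may be technical.

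The members and lists were chosen with earlier results of these data known. Features were filtered with filterByExpr (default minimum of 10 counts), scaled by TMM and tested in 1 fit over all libraries with edgeR 4.0.16 (R 4.3.3), by the 2-sided quasi-likelihood F-test with Benjamini-Hochberg adjustment over all features and a threshold of 0.05. CPM used TMM-scaled library sizes and is not per length, so levels are not compared between genes; log2 CPM used a prior count of 2. All 41 tested genes were above the count filter in every library. Depth was at least 23502519 counts per library. Library sets came from average-linkage clustering on mitochondrial mRNAs. Gene positions are from GENCODE 29 and promoters from RefSeq (GRCh38.p14). Values by library were given, within each role, for up to 2 genes with the largest change at 1000 µM called in both fits (else the one with the highest mean CPM), and for genes called at 1000 against 100 µM in both fits with a log2 fold change of at least 1. Of the further genes the 3 largest rises and falls called in both fits were named. Alternatives were DESeq2 1.42.0 (its size factors and its test), no filter, a minimum mean of 5 CPM, a replicate block, the library set as a term, only the groups compared, a prior count of 0.5 and each library left out.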

Additional observations from a re-analysis of the deposited data

How the results depend on the processing

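Of 764 values for single genes under the alternatives, 737 kept their direction and side of the threshold, 18 lost a call, 8 gained one and 1 reversed: MAP1LC3B at 100 µM, from 0.44 to -0.27 when the library set was a term, and the cause was not tested. The 764 values cover only the genes given by library. Most of those were chosen as called alike without and with the set term, itself 1 of the alternatives, so their stability was partly fixed by that choice. At 0.01 µM 1 gene was called by DESeq2's test and 2 with the set term, against 0. At 10 µM, where 9 were called, DESeq2's test called 14, the fit without a filter 4 and that with the set term 0. At 100 µM the set term left 11 of 20. Leaving out each library in turn gave 0 to 0 called genes for both 0.01 and 0.1 µM, and 0 to 1 for 1 µM (1 without its replicate 2). For 10, 100 and 1000 µM the ranges were 1 to 6, 18 to 21 and 22 to 26; for 1000 against 100 µM 19 to 26, for the joint test 30 to 34 and within set B 25 to 31; an arm left with 1 library was assumed to vary like the others. The counts at 1000 µM and at 1000 against 100 µM stayed within 1.5 times the value given under every alternative run. Replicate numbers do not pair the libraries: the mean correlation of deviations of same-numbered libraries was -0.108 to 0.152 over 21 pairs of groups, and 1 exceeded 0.1. A replicate block gave 0, 0, 0, 8, 20 and 24 called genes in rising order of dose, 24 at 1000 against 100 µM and 31 in the joint test. For ATG10, the least counted gene, a prior count of 0.5 gave a log2 CPM difference of 0.65 at 1000 µM, against 0.64. Depth limits ULK2, at 0 to 1 counts per library.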
